A study of Bos taurus with 9 samples.

Results

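The genes described are 50 bovine genes of the DNA damage response and DNA repair, taken by symbol from a fixed list that covers damage checkpoint signalling, homologous recombination, end joining, excision repair, mismatch repair and interstrand crosslink repair. They are 50 of the 17852 genes in the deposited expression table, and all 50 were found in it. RNA was sequenced from bovine oocytes at metaphase II, the arrest stage at which a mammalian egg awaits fertilization. There were 3 libraries from oocytes given microplastics together with taurine (the taurine libraries below), 3 from oocytes exposed to microplastics alone, and 3 from control oocytes. Taurine is an amino sulfonic acid. By the title of the study, the comparisons ask what microplastics change in maturing oocytes and what added taurine does to that change. Polymer, particle size, doses, exposure time, animals and the number of oocytes per library are not given in the labels, and taurine without microplastics is not among the samples.

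Cells sense broken or damaged DNA through kinases such as ATM and ATR, which pass the signal to checkpoint kinases that hold the cell cycle until the damage is mended. Damaged bases and single-strand breaks are mended by base excision repair, bulky lesions by nucleotide excision repair, and breaks through both strands by homologous recombination or by end joining. A fully grown oocyte makes almost no new RNA, so its mRNA is mostly a stored maternal stock that is translated and degraded on schedule during maturation and early cleavage. A measured mRNA level in such a cell is therefore a level of stored transcript and says nothing direct about repair activity.

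Depth was 21.17 to 22.74 M estimated reads a library, of which the 50 genes together took 0.427% to 0.603%. The libraries carried the RNA of oocytes by their markers: the 12 oocyte genes examined, such as ZP2, GDF9 and BTG4, were all tested and summed to 83278.9 to 110080.1 CPM in taurine, 39660.5 to 47837.5 CPM in microplastics and 91732.8 to 121189.1 CPM in control libraries. Markers of the cumulus and granulosa cells that surround an oocyte summed to 516.1 to 565.3 CPM in taurine, 417.2 to 517.8 CPM in microplastics and 509.2 to 610.5 CPM in control libraries. Of the 13 in the table, FSHR had under 3 reads in every library, while STAR had 222.9 to 382.2 CPM and HAS2 72.0 to 136.6 CPM. SERPINE2 had 12.7 to 65.9, VCAN 28.0 to 54.0, GJA1 10.6 to 38.8 and PTGS2 8.26 to 24.0 CPM. CYP19A1 reached at most 1.04, AMH 0.547, PTX3 4.97 and INHBA 4.76 CPM. TNFAIP6 had 66.1 CPM in control 2, 33.3 CPM in taurine 3 and at most 1.53 CPM elsewhere. INHA had 9.19 CPM in taurine 3 and at most 1.22 CPM elsewhere. Leukocyte markers summed to 8.88 CPM at most, erythroid markers to 67.2 CPM, endothelial markers to 37.4 CPM and stroma markers to 40.8 CPM, of which LUM made 40.4 CPM in taurine 3. In the correlation of all tested genes, control 3 stood nearer to taurine 1 and taurine 2 (0.976 with each) than to control 1 and control 2 (0.962 and 0.964), and taurine 3 stood nearer to control 2 (0.977) than to taurine 1 and taurine 2 (0.951 and 0.962). Results that rest on these libraries are given with and without them. Values are counts per M reads scaled by TMM, a library normalization (CPM), in which TMM factors were 0.841 to 0.958 in taurine, 1.214 to 1.253 in microplastics and 0.835 to 0.972 in control libraries.

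Levels can be compared between genes only per transcript length, so the order of the genes is given in TPM, transcripts per M. PCNA, the sliding clamp that holds DNA polymerases on their template, was the most abundant of the 50 in control oocytes, with 807.7 ± 106.4 TPM (SD, n = 3). POLB, the gap-filling polymerase of base excision repair, averaged 220.1 ± 34.0 TPM, H2AX, the histone variant phosphorylated around breaks, 213.6 ± 38.7 TPM, RAD51C, a recombination gene, 145.1 ± 9.13 TPM, and UNG, the uracil glycosylase, 114.4 ± 16.4 TPM. POLB and H2AX did not differ beyond their spread, and neither did XRCC4 (98.4 ± 11.0 TPM), BRCA2 (90.9 ± 8.05 TPM) and CHEK1 (89.4 ± 5.37 TPM), which came next after UNG. At the low end, 10 of the 50 averaged under 3 TPM. They included the kinases ATR (2.50 ± 0.538 TPM) and PRKDC (1.23 ± 0.391 TPM), and MDC1, a scaffold at breaks, with 0.397 ± 0.0981 TPM. FANCA, of the Fanconi core complex, had 0.0 to 0.676 CPM in taurine, 0.226 to 0.709 CPM in microplastics and 0.0529 to 0.334 CPM in control libraries. Before TMM scaling, 3 reads stood at 0.132 to 0.142 CPM, so this floor is not on the same scale. FANCA did not pass the filter on low counts. The other 49 were tested.

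With microplastics, 8 of the 49 tested genes rose and 8 fell, and 33 did not pass the test. The genes that rose were RAD50, XRCC1, MUTYH, ERCC2, XPA, DDB2, FANCD2 and MDM2, and those that fell were XRCC4, RAD51C, POLB, PCNA, XRCC2, APEX1, CHEK1 and ERCC1. A gene is said to have risen or fallen where the adjusted p of edgeR's quasi-likelihood test, with Benjamini-Hochberg adjustment over all 13206 genes tested, was under 0.05. That is 16.3% of the genes in each direction, beside 9.68% of all tested genes called higher and 14.7% called lower. The median log2 fold change of the 49 was 0.21, beside 0.04 over all tested genes. These are bulk libraries, in which fewer cells of a type and less RNA per cell cannot be told apart. Over the same contrast 7 of the 12 oocyte markers fell and 2 rose, 5 of 11 tested cumulus and granulosa markers fell, and so did both tested erythroid markers, which summed to 10.6 to 17.7 CPM in microplastics and 31.0 to 67.2 CPM in control libraries; their part in the repair gene results was not tested. The plot of all 49 genes by role shows both directions within 4 of the 7 roles.

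**Figure D1:**
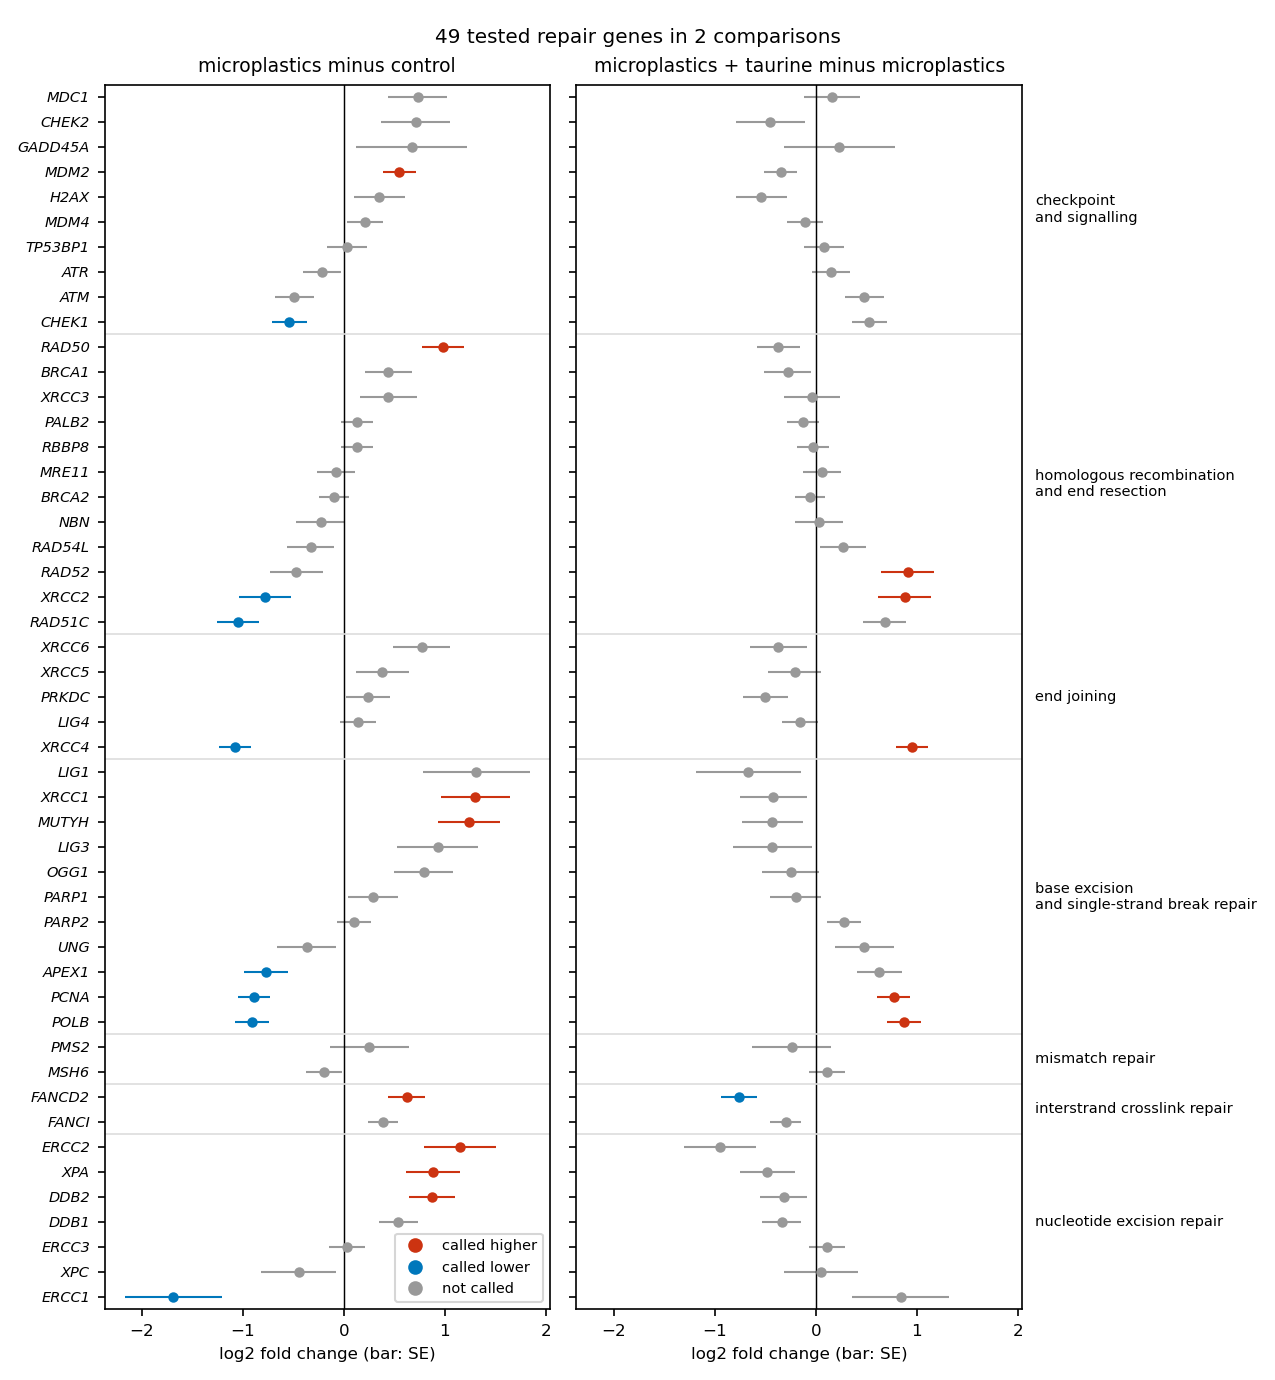
Log2 fold change with its SE (horizontal axis) of the 49 tested repair genes (vertical axis, grouped by role), for microplastics minus control and for microplastics and taurine minus microplastics. Red marks genes called higher (8 and 5), blue genes called lower (8 and 1) and grey genes that did not pass the test; XRCC4, POLB and PCNA lie far left of 0 in one panel and far right in the other.

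Base excision and single-strand break repair held 2 genes that rose and 3 that fell of 11. PCNA had 1601.5, 1226.0 and 1217.5 CPM in taurine libraries, 775.5, 795.0 and 800.1 CPM in microplastics libraries and 1557.9, 1368.9 and 1474.4 CPM in control libraries. POLB had 211.9, 231.6 and 264.6 CPM in taurine libraries, 106.5, 130.0 and 152.2 CPM in microplastics libraries and 233.5, 246.4 and 251.5 CPM in control libraries. For both genes the 3 microplastics libraries lay below all 6 others in CPM, and the taurine and control ranges overlapped. In TPM, which carries no TMM factor, the separation was not complete. POLB in microplastics 3 (216.4 TPM) lay above control 1 (191.8), control 2 (210.5) and taurine 1 (209.2). PCNA in taurine 3 (653.4 TPM) lay within the microplastics range (637.7 to 695.2), which stayed below all controls. The log2 fold change with microplastics against control was -0.89 ± 0.16 (SE) for PCNA, with an adjusted p of 0.00196, and -0.91 ± 0.17 for POLB, with an adjusted p of 0.00293. Both kept their call whichever single library was left out.

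APEX1, the endonuclease that cuts beside a missing base, had 27.1, 21.6 and 20.1 CPM in taurine libraries, 17.6, 11.2 and 15.8 CPM in microplastics libraries and 24.5, 24.5 and 26.9 CPM in control libraries. It fell by 0.77 on the log2 scale (SE 0.22, adjusted p = 0.0264), with no overlap between microplastics and control in CPM. In TPM they overlapped, at 13.4 to 22.2 in microplastics and 18.4 to 25.3 in control libraries. The call was lost without microplastics 2 (-0.59), microplastics 3 (-0.80), control 1 (-0.79) or control 2 (-0.79). XRCC1, the scaffold of single-strand break repair, had 29.1, 20.7 and 16.6 CPM in taurine libraries, 34.7, 26.3 and 28.2 CPM in microplastics libraries and 6.75, 10.6 and 18.9 CPM in control libraries. Control 3 was the highest of the controls and lay inside the taurine range. XRCC1 rose with microplastics by 1.30 ± 0.34 on the log2 scale (adjusted p = 0.0174), a call lost without microplastics 1 (1.19), control 1 (1.01) or control 2 (1.21). MUTYH, the glycosylase that removes adenine paired with an oxidized guanine, had 12.5, 8.11 and 6.68 CPM in taurine libraries, 12.2, 14.2 and 10.3 CPM in microplastics libraries and 5.28, 3.49 and 6.72 CPM in control libraries. It rose by 1.24 ± 0.31 (adjusted p = 0.014), and microplastics and control did not overlap; without microplastics 2 (1.14) or control 2 (1.02) the call was lost.

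The partner glycosylase OGG1, which excises oxidized guanine, had a log2 fold change of 0.79 ± 0.29 at 2.64 to 6.24 CPM over all libraries and did not pass (adjusted p = 0.0638). UNG (-0.37 ± 0.29) did not pass either, nor did PARP1 (0.29 ± 0.25) and PARP2 (0.10 ± 0.17), which mark breaks with ADP-ribose chains. LIG1 and LIG3, the ligases that seal the repaired strand, had log2 fold changes of 1.31 ± 0.53 and 0.93 ± 0.40 and did not pass with all libraries in the fit. Their libraries are described with the taurine and control comparison.

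**Figure D2:**
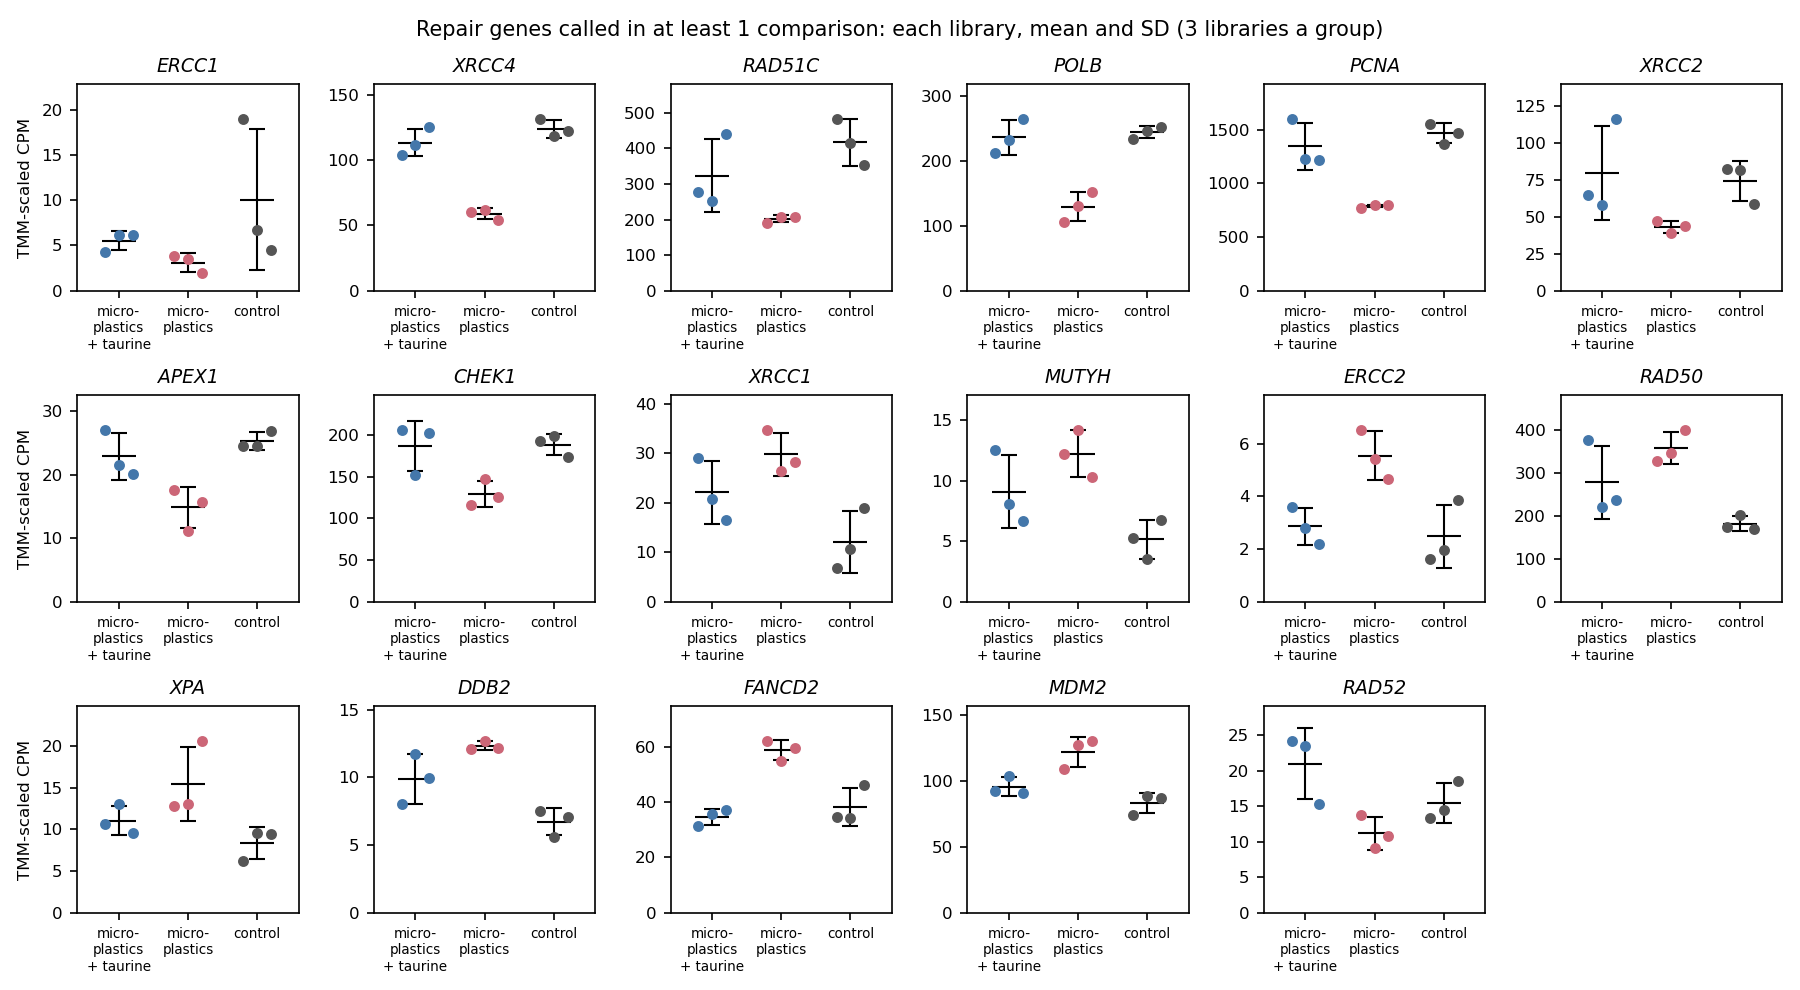
TMM-scaled CPM (vertical axes from 0) of the 17 repair genes called in at least 1 comparison, 1 panel a gene, with a point for each library and the mean and SD over 3 libraries for microplastics and taurine, microplastics, and control. In the XRCC4, POLB and PCNA panels the microplastics points lie below all others; in the ERCC1 panel 1 control library, at 19.0 CPM, lies far above the other controls.

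Among the 5 end joining genes 1 fell and 0 rose. XRCC4, the partner that stabilizes DNA ligase IV, had 104.2, 111.3 and 125.1 CPM in taurine libraries, 60.5, 61.9 and 54.0 CPM in microplastics libraries and 131.7, 118.2 and 122.3 CPM in control libraries. The microplastics libraries were the lowest 3 and stood clear of the rest. XRCC4 fell by 1.08 on the log2 scale (SE 0.16, adjusted p = 0.000657), the smallest adjusted p among the 49 genes, and kept its call whichever single library was left out. LIG4 itself changed by 0.14 ± 0.18, and PRKDC, the kinase of the end joining complex, by 0.24 ± 0.22; neither passed. Values for the DNA-end-binding pair of that complex were 0.77 ± 0.28 for XRCC6 (adjusted p = 0.0636) and 0.38 ± 0.26 for XRCC5 (adjusted p = 0.30), and XRCC6 passed when taurine 1 or control 3 was left out.

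Homologous recombination and end resection held 1 gene that rose and 2 that fell of 12. RAD51C, a paralogue of the recombinase that pairs DNA strands, had 276.2, 253.2 and 440.3 CPM in taurine libraries, 190.5, 207.0 and 207.6 CPM in microplastics libraries and 482.8, 413.8 and 353.1 CPM in control libraries. All microplastics libraries lay below the other 6 in CPM, and taurine 3 lay among the controls. In TPM the microplastics libraries (101.1 to 117.1) lay below the controls, while taurine 1 (106.8) and taurine 2 (96.7) did not lie above them. RAD51C fell with microplastics by 1.05 (SE 0.21, adjusted p = 0.00487), with the call kept whichever single library was left out. XRCC2, another such paralogue, had 65.1, 57.8 and 116.3 CPM in taurine libraries, 47.1, 39.1 and 43.6 CPM in microplastics libraries and 82.3, 81.9 and 58.9 CPM in control libraries. Its fall of 0.78 on the log2 scale (SE 0.26, adjusted p = 0.0429) was lost without any 1 of the microplastics libraries (-0.83, -0.70 and -0.77) or without control 1 (-0.70) or control 2 (-0.71). In TPM the groups of XRCC2 overlapped, at 24.0 to 43.6 in taurine, 21.9 to 27.7 in microplastics and 25.8 to 29.9 in control libraries.

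RAD50, the coiled-coil subunit of the complex that tethers and trims DNA ends, had 376.1, 219.4 and 236.9 CPM in taurine libraries, 327.2, 345.1 and 399.7 CPM in microplastics libraries and 172.7, 202.6 and 169.8 CPM in control libraries. The microplastics libraries lay above the controls, and taurine 1 lay within the microplastics range. RAD50 rose by 0.98 ± 0.21 (adjusted p = 0.00616) and kept its call whichever single library was left out. Its partners in that complex did not pass, with log2 fold changes of -0.08 ± 0.19 for MRE11, the nuclease, and -0.23 ± 0.24 for NBN. The same held for RBBP8, which promotes end resection (0.13 ± 0.16), and for BRCA1 (0.44 ± 0.23), PALB2 (0.13 ± 0.16) and BRCA2 (-0.10 ± 0.15), which load the recombinase. XRCC3, a further recombinase paralogue (0.44 ± 0.28), and RAD54L, a motor protein of strand exchange (-0.33 ± 0.23), did not pass either, and RAD52 is described with taurine. BRCA2, at 344.6 to 441.2 CPM over all 9 libraries, was 1 of 8 genes whose sign turned with scaling by library size only.

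In checkpoint signalling 1 of 10 genes rose and 1 fell. CHEK1, the kinase downstream of ATR, had 206.3, 152.2 and 202.6 CPM in taurine libraries, 116.1, 147.1 and 125.6 CPM in microplastics libraries and 192.5, 198.4 and 174.0 CPM in control libraries. It fell by 0.54 (SE 0.17, adjusted p = 0.0393), and microplastics and control did not overlap in CPM. In TPM, which carries no TMM factor, CHEK1 averaged 93.6 ± 14.9 in taurine, 93.8 ± 8.74 in microplastics and 89.4 ± 5.37 in control libraries, and with scaling by library size only its log2 fold change was -0.05. Its call was also lost without any 1 microplastics library (-0.45 to -0.63), control 1 (-0.52) or control 2 (-0.50). MDM2, a ubiquitin ligase that restrains the damage response, had 92.5, 104.0 and 90.9 CPM in taurine libraries, 108.9, 127.2 and 130.6 CPM in microplastics libraries and 74.4, 88.6 and 87.2 CPM in control libraries. All microplastics libraries were higher than the other 6. MDM2 rose by 0.55 ± 0.16 (adjusted p = 0.0265), a call lost without microplastics 2 (0.53), microplastics 3 (0.52), control 1 (0.47) or control 2 (0.59). Its relative MDM4 had 0.21 ± 0.18.

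Upstream kinases ATM (-0.49 ± 0.19, adjusted p = 0.0837) and ATR (-0.22 ± 0.19) did not pass, nor did the checkpoint kinase CHEK2 (0.71 ± 0.34), MDC1 (0.73 ± 0.29), H2AX (0.35 ± 0.25) or TP53BP1 (0.03 ± 0.20), which binds chromatin at breaks. GADD45A, a stress-induced growth arrest gene, had 173.0, 70.3 and 30.0 CPM in taurine libraries, 72.9, 46.5 and 114.0 CPM in microplastics libraries and 45.6, 29.8 and 71.5 CPM in control libraries. Each group overlapped both others, and the SE of its log2 fold change was the largest of the 49 genes (0.67 ± 0.55, microplastics against control).

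Nucleotide excision repair held 3 genes that rose and 1 that fell of 7. XPA, which verifies the lesion, had 10.6, 13.0 and 9.52 CPM in taurine libraries, 12.8, 13.0 and 20.6 CPM in microplastics libraries and 6.15, 9.57 and 9.44 CPM in control libraries. It rose by 0.88 ± 0.27 (adjusted p = 0.0357), and the call was lost without any 1 microplastics library (0.63 to 1.02), control 1 (0.70) or control 2 (0.98). DDB2, the subunit that recognizes ultraviolet damage, had 8.03, 11.7 and 9.96 CPM in taurine libraries, 12.1, 12.7 and 12.2 CPM in microplastics libraries and 7.52, 5.60 and 7.10 CPM in control libraries. The 3 groups of DDB2 did not overlap, in the order microplastics, taurine, control. It rose with microplastics by 0.87 ± 0.23 (adjusted p = 0.0183), and the call was lost without microplastics 2 (0.86), microplastics 3 (0.90) or control 2 (0.75). Its partner DDB1 had 0.54 ± 0.19 and an adjusted p of 0.0603.

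ERCC2, a helicase of the general transcription and repair factor TFIIH, had 3.61, 2.80 and 2.19 CPM in taurine libraries, 6.53, 5.44 and 4.68 CPM in microplastics libraries and 1.63, 1.96 and 3.86 CPM in control libraries. It rose by 1.15 ± 0.36 (adjusted p = 0.0377), and 6 of the 9 single omissions lost the call (0.93 to 1.28), namely taurine 2, each microplastics library, control 1 and control 2. ERCC3, the other helicase of that factor, had 0.03 ± 0.18. ERCC1, a subunit of the nuclease that cuts beside the lesion, had 4.32, 6.18 and 6.13 CPM in taurine libraries, 3.85, 3.55 and 1.91 CPM in microplastics libraries and 19.0, 6.66 and 4.53 CPM in control libraries. In TPM, ERCC1 overlapped between microplastics (3.83 to 7.44) and control libraries (6.52 to 21.9). Its log2 fold change of -1.69 ± 0.48 (adjusted p = 0.0252) rests on control 1: without that library it was -0.85 and not called, and the call was also lost without microplastics 1 (-1.86), microplastics 2 (-1.78) or microplastics 3 (-1.42). XPC, the damage sensor, had 1.37 to 3.05 CPM over all libraries and did not pass.

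FANCD2, the protein monoubiquitinated at interstrand crosslinks, had 31.5, 35.7 and 37.0 CPM in taurine libraries, 62.1, 54.8 and 59.7 CPM in microplastics libraries and 34.5, 34.1 and 46.2 CPM in control libraries. The microplastics libraries were the highest 3. FANCD2 rose with microplastics by 0.62 ± 0.18 (adjusted p = 0.0263), and the call was lost without microplastics 1 (0.60), microplastics 3 (0.63), control 1 (0.55) or control 2 (0.54). FANCI, its partner, had 0.39 ± 0.15 and an adjusted p of 0.0801. The mismatch repair genes MSH6 (-0.20 ± 0.18) and PMS2 (0.25 ± 0.39) did not pass.

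How many genes rose or fell depended on scaling. With scaling by library size only, 27 repair genes were called higher and 2 lower with microplastics, beside 30.3% and 6.63% of all genes, and the median of all tested genes moved to 0.52 and that of the repair genes to 0.69. All 16 genes called under TMM kept their sign, the 8 that rose all passed again, and of the 8 that fell RAD51C (-0.55, adjusted p = 0.0269) and XRCC4 (-0.60, adjusted p = 0.011) passed. PCNA (-0.41, adjusted p = 0.0598), POLB (-0.43, adjusted p = 0.0557) and ERCC1 (-1.17, adjusted p = 0.0654) were lower without passing. The other values were -0.29 for XRCC2, -0.29 for APEX1 and -0.05 for CHEK1.

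**Figure D3:**
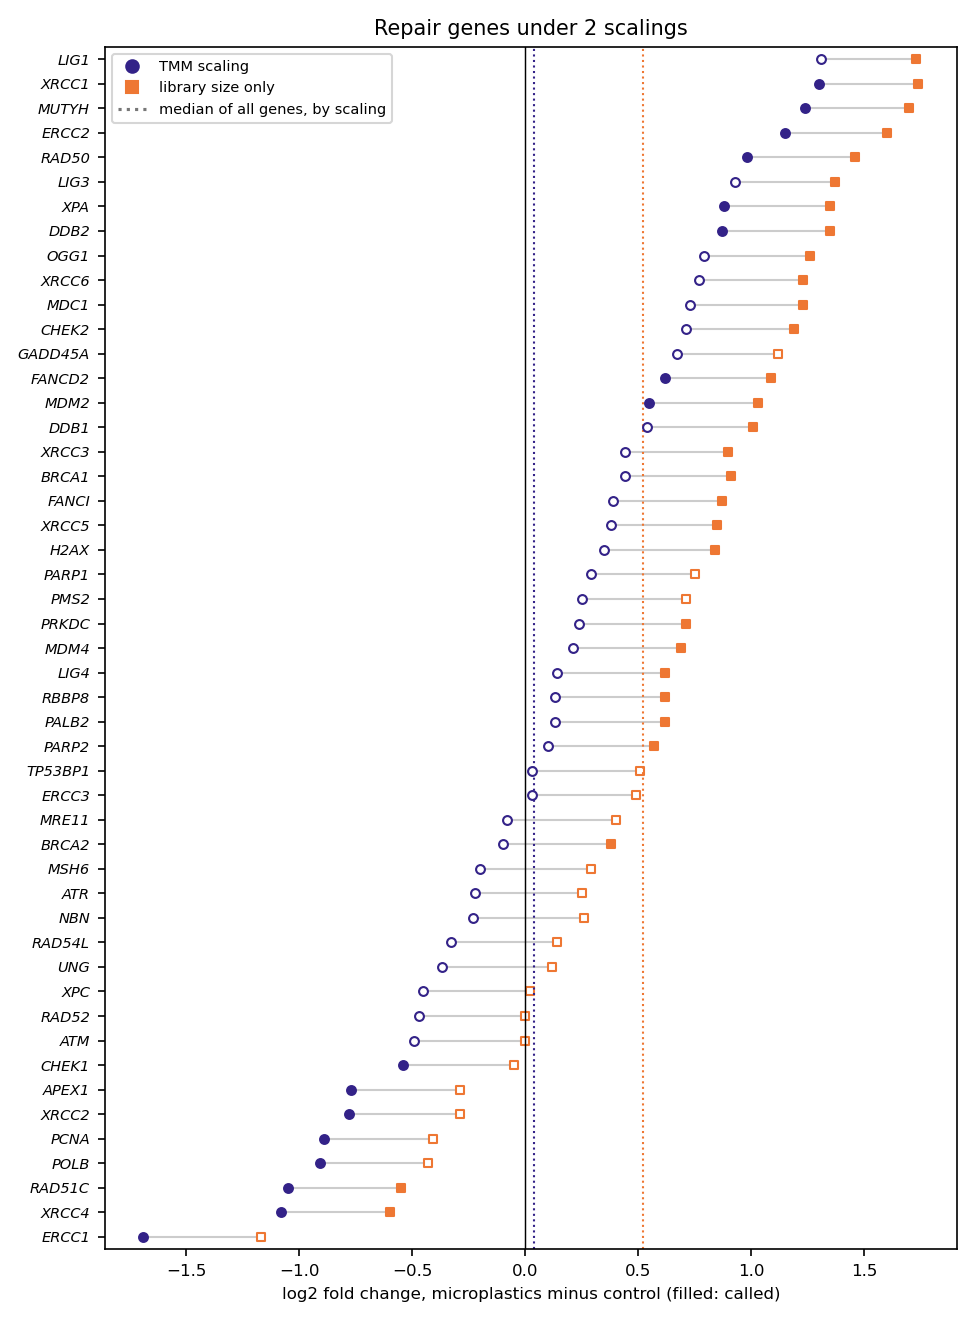
Log2 fold change, microplastics minus control (horizontal axis), of the 49 tested repair genes (vertical axis) with TMM scaling (circles) and with library size only (squares); filled symbols passed the test, and dotted lines mark the median of all genes at 0.04 and 0.52. Every gene moves right without TMM, 8 of them across 0 (ATR, BRCA2, RAD54L, MRE11, NBN, UNG, MSH6 and XPC), and 27 then stand as higher and 2 as lower.

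Fold changes also went with transcript length over all genes. In 5 classes of rising length, with median lengths of 726, 1348, 1944, 2809 and 4774 nt, the median log2 fold change of all genes with microplastics against control was -0.36, -0.08, 0.07, 0.18 and 0.28. Over the same classes the repair genes had medians of 0.67 (n = 3), 0.21 (n = 7), 0.10 (n = 13), 0.19 (n = 12) and 0.19 (n = 14). The 8 genes that fell had lengths of 772 to 2770 nt (median 1503 nt), and the 8 that rose 726 to 4818 nt (median 2200 nt). With a smooth trend on length removed in each library, XRCC4 (-0.97, adjusted p = 0.00118), PCNA (-0.93, adjusted p = 0.0023), POLB (-0.76, adjusted p = 0.0086), RAD51C (-1.21, adjusted p = 0.0041) and RAD50 (0.73, adjusted p = 0.0188) passed again. So did XRCC1, MUTYH, XPA, ERCC2, DDB2, CHEK1, XRCC2 and ERCC1, with adjusted p of 0.0116 (DDB2) to 0.0421 (ERCC2). MDM2 (0.44, adjusted p = 0.0559), FANCD2 (0.38, adjusted p = 0.118) and APEX1 (-0.64, adjusted p = 0.0636) did not. ATM (-0.81, adjusted p = 0.0162), ATR (-0.53, adjusted p = 0.0488) and OGG1 (0.87, adjusted p = 0.0435) passed, which they had not done before this removal.

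**Figure D4:**
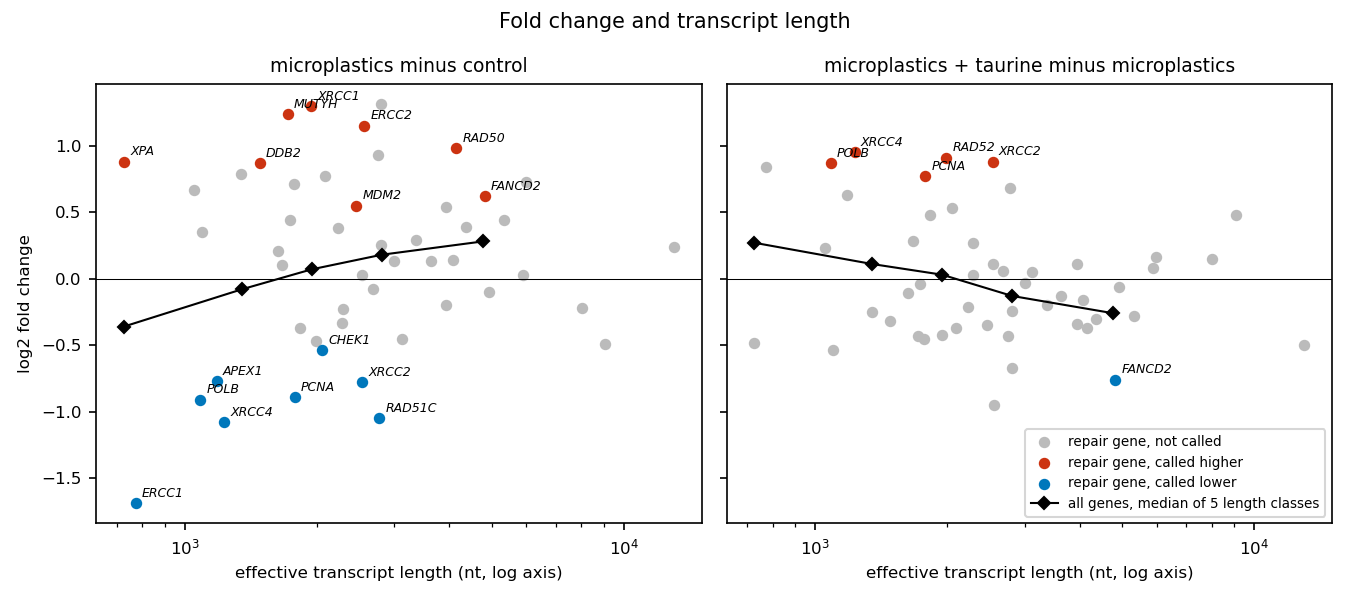
Log2 fold change (vertical axis) against effective transcript length in nt (horizontal log axis) of the 49 tested repair genes, with the median of all genes in 5 length classes as diamonds, for microplastics minus control and for microplastics and taurine minus microplastics. The diamonds climb from -0.36 to 0.28 in the first panel and descend from 0.27 to -0.26 in the second; the short gene XPA lies above the line and POLB, XRCC4 and ERCC1 below it in the first.

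Taurine added to microplastics was set against microplastics alone, and 5 of the 49 genes rose and 1 fell. The genes that rose were XRCC4, POLB, PCNA, XRCC2 and RAD52, and the gene that fell was FANCD2. That is 10.2% higher and 2.04% lower, beside 10.1% and 4.13% of all tested genes, so the shares lay close to the background. The median log2 fold change was -0.06, beside -0.02 over all genes. Oocyte markers moved in this contrast too, 6 of 12 higher and 2 lower, as did 4 of 11 tested cumulus and granulosa markers, all higher, and 1 of the erythroid markers, also higher, and their part was not tested. This comparison shares its microplastics libraries with the one above, so a gene that those libraries set apart stands out in both with opposite signs.

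XRCC4 had a log2 fold change of 0.95 ± 0.16 (adjusted p = 0.00207) with taurine against microplastics, beside -1.08 with microplastics against control. For POLB the values were 0.87 ± 0.17 (adjusted p = 0.00581) and -0.91, and for PCNA 0.77 ± 0.16 (adjusted p = 0.00665) and -0.89. In CPM all taurine libraries of each of these genes lay above all microplastics libraries, which in TPM held for XRCC4 alone. The rise of each kept its call whichever single library was left out. XRCC2 had 0.88 ± 0.26 (adjusted p = 0.0383), beside -0.78, with taurine 3 at 116.3 CPM above every other library. Without taurine 3 its value was 0.51 and it was not called, and the call was lost as well without microplastics 1 (0.93), microplastics 2 (0.80), microplastics 3 (0.87) or control 2 (0.88). FANCD2 had -0.76 ± 0.18 (adjusted p = 0.0149), beside 0.62, with no overlap between taurine and microplastics, and lost its call without microplastics 1 (-0.74).

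RAD52, a recombination mediator, had 24.2, 23.5 and 15.3 CPM in taurine libraries, 13.7, 9.09 and 10.8 CPM in microplastics libraries and 13.3, 14.5 and 18.6 CPM in control libraries. Taurine and microplastics did not overlap in CPM, and taurine 3 lay among the controls. In TPM taurine 3 (7.33) lay within the microplastics range (6.52 to 10.3). RAD52 rose with taurine by 0.91 ± 0.26 (adjusted p = 0.0339), whereas its value for microplastics against control was -0.47 ± 0.26 and did not pass. That call was lost without taurine 1 (0.80), taurine 2 (0.82), microplastics 1 (1.06), microplastics 2 (0.77) or microplastics 3 (0.87). CHEK1 (0.53 ± 0.17, adjusted p = 0.0594), RAD51C (0.68 ± 0.21, adjusted p = 0.0516) and APEX1 (0.63 ± 0.22, adjusted p = 0.0805) did not pass edgeR's test in this contrast with all libraries. By the DESeq2 Wald test they passed, with adjusted p of 0.0385, 0.0309 and 0.0391 in that order. With edgeR, single omissions changed some of these calls. RAD51C passed without taurine 1, taurine 2 or control 3, CHEK1 without taurine 2, and UNG without taurine 1. The genes that rose with microplastics gave RAD50 -0.37 ± 0.21, XRCC1 -0.42 ± 0.33, MUTYH -0.43 ± 0.30, ERCC2 -0.95 ± 0.36, XPA -0.48 ± 0.27, DDB2 -0.32 ± 0.23 and MDM2 -0.35 ± 0.16, of which none passed with all libraries. Left out singly, taurine 1 gave a call to RAD50 (-0.65) and control 3 to ERCC2.

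Scaling by library size only gave 1 gene higher (XRCC4, 0.51, adjusted p = 0.0304) and 13 lower with taurine against microplastics, beside 4.55% and 18.8% of all genes, and moved the median of all tested genes to -0.45 and that of the repair genes to -0.50. The rises of POLB (0.43, adjusted p = 0.0773), PCNA (0.35, adjusted p = 0.127), XRCC2 (0.42, adjusted p = 0.18) and RAD52 (0.49, adjusted p = 0.233) kept their sign and lost their call. FANCD2 was lower again (-1.20, adjusted p = 0.00436), although not with the length trend removed (-0.51, adjusted p = 0.065).

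Set against control, microplastics and taurine gave 0 repair genes higher and 0 lower of 49 with edgeR, beside 0.00757% and 0% of all tested genes, and 6 (12.2%) had an unadjusted p under 0.05, beside 5.70% of all tested genes. DESeq2 and limma-voom also called 0. The median log2 fold change was 0.10, beside 0.02 over all genes. The 6 were MDC1 (0.89 ± 0.29), RAD50 (0.61 ± 0.21), XRCC1 (0.87 ± 0.34), MUTYH (0.82 ± 0.31), DDB2 (0.55 ± 0.23) and PARP2 (0.39 ± 0.17), each higher with taurine. For XRCC4 (-0.13 ± 0.15), POLB (-0.05 ± 0.17) and PCNA (-0.12 ± 0.15) the difference from control was within its SE, and a p that misses the threshold does not show that the levels were equal.

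This comparison depends on control 3 and taurine 3, which stood nearer to the other group. Whether their labels were exchanged was not tested, and the count of 0 is for the groups as labelled. LIG1 had 305.4, 216.5 and 72.7 CPM in taurine libraries, 294.2, 298.3 and 352.9 CPM in microplastics libraries and 70.4, 74.6 and 237.0 CPM in control libraries. Taurine 3 lay with control 1 and control 2, and control 3 with taurine 1 and taurine 2. LIG3 had the same layout, with 24.7, 19.2 and 9.14 CPM in taurine, 22.4, 22.3 and 26.9 CPM in microplastics and 9.53, 7.40 and 20.5 CPM in control libraries. With control 3 and taurine 3 left out together, 4 repair genes were called higher and 1 lower with taurine against control, beside 4.64% and 1.19% of all genes. These libraries were left out for their likeness to the other group, so more calls between the groups follow from the choice, and the values are a description only. The log2 fold changes were then 1.85 for LIG1, 1.38 for LIG3, 1.53 for XRCC1 and 1.24 for MUTYH, all of base excision and single-strand break repair, and -0.75 for RAD51C.

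**Figure D5:**
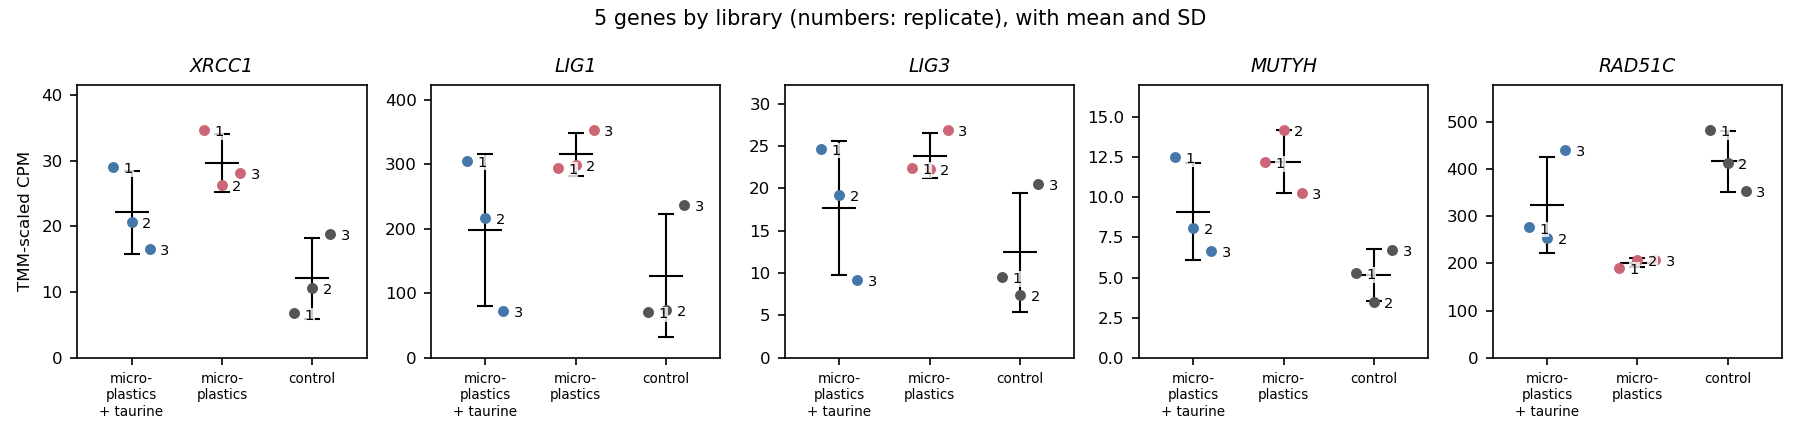
TMM-scaled CPM (vertical axes from 0) of the 5 repair genes called between microplastics and taurine and control once control 3 and taurine 3 are left out, with a numbered point for each library and the mean and SD over 3 libraries a group. In the LIG1 and LIG3 panels point 3 of the taurine group lies at the level of control points 1 and 2, and control point 3 near the taurine points 1 and 2.

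The same omission left 15 repair genes higher and 9 lower with microplastics against control, beside 19.5% and 18.6% of all genes. All 16 genes called with every library were among them, and BRCA1 (0.67), XRCC6 (1.10), LIG1 (2.14), LIG3 (1.51), PARP1 (0.64), OGG1 (0.99) and DDB1 (0.66) joined the higher ones and ATM (-0.56) the lower ones. With taurine against microplastics it left 4 higher and 1 lower, beside 9.09% and 4.15% of all genes, and XRCC2 (0.50, adjusted p = 0.0895) was the gene lost.

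Beyond the 50 genes, 139 other genes of the same pathways were listed by role, of which 134 were tested. With microplastics 13 of them rose and 22 fell (9.70% and 16.4%), beside 9.68% and 14.7% of all tested genes. With taurine against microplastics 23 rose and 7 fell (17.2% and 5.22%), beside 10.1% and 4.13% of all tested genes. Scaling by library size only gave 44 and 10 with microplastics, beside 30.3% and 6.63% of all tested genes. For taurine against microplastics it gave 8 and 31, beside 4.55% and 18.8% of all tested genes. Against control, taurine gave 0 called by edgeR, beside 0.00757% higher and 0% lower of all tested genes. An unadjusted p under 0.05 was found for 3, beside 5.7% of all tested genes. RAD17, the loader of the checkpoint clamp, averaged 588.2 ± 22.7 CPM in taurine, 179.8 ± 12.1 CPM in microplastics and 571.9 ± 101.0 CPM in control libraries (SD, n = 3). RPA3, the smallest subunit of the single-strand DNA binding complex, averaged 366.2 ± 41.2 CPM in taurine, 130.1 ± 1.13 CPM in microplastics and 431.6 ± 51.2 CPM in control libraries. UBE2T, the conjugating enzyme of the Fanconi pathway that modifies FANCD2, averaged 149.0 ± 36.8 CPM in taurine, 41.3 ± 8.56 CPM in microplastics and 159.0 ± 45.8 CPM in control libraries. All of these were called in both comparisons, lower with microplastics (log2 fold changes of -1.67, -1.73 and -1.95 in the order named) and higher with taurine against microplastics (1.71, 1.49 and 1.85), and they were called under both scalings.

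CDK7, the kinase of TFIIH, fell by 1.25 with microplastics and rose by 1.19 with taurine against microplastics, and FANCL, the ligase that works with UBE2T, fell by 1.08 with microplastics. RNF168, a ubiquitin ligase at breaks, rose by 1.42 with taurine. NEIL2, a glycosylase for oxidized bases, averaged 12.9 ± 2.41 CPM in taurine, 33.4 ± 4.45 CPM in microplastics and 9.62 ± 2.88 CPM in control libraries, with log2 fold changes of 1.79 for microplastics against control (adjusted p = 0.000693) and -1.38 for taurine against microplastics (adjusted p = 0.00439). REV1, a translesion polymerase, SHPRH, a ubiquitin ligase for PCNA, and RAD23B, a partner of XPC, had 0.71, 1.21 and 0.71 with microplastics, and -0.60, -1.02 and -0.76 with taurine. SMC5, of the SMC5/6 complex, had 0.72 with microplastics, and RIF1, an end-protection factor, -0.63 with taurine. Of these, the calls of SMC5, SHPRH, RAD23B and RIF1 in any comparison, and that of REV1 with taurine, were lost on leaving out some single library.

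Transcript models and neighbouring genes limit a few of these values. Of the 50 genes, 45 had 1 transcript row and 5 had several, so that estimated counts were summed over 8 rows for RAD51C, whose main row held 76.0% of its reads, and over 4 for XRCC1. BRCA2 had 3 rows, which summed to 7251, 7976 and 7454 estimated reads in taurine libraries, 9311, 11316 and 12039 in microplastics libraries and 7486, 8348 and 8964 in control libraries. Within that sum, the row of 10864 nt held 1233, 432 and 605 estimated reads in taurine libraries, 2883, 2255 and 3141 in microplastics libraries and 512, 196 and 1316 in control libraries. That row held 15.7% of the gene's reads, and how the program shared reads among the 3 rows was not tested. By a RefSeq table of assembly ARS-UCD2.0, 7 of the 17 called genes overlap another gene of the table, namely RAD51C, RAD50, MUTYH, APEX1, ERCC1, ERCC2 and DDB2. Whether counting used the strand is not given in the sources used here, so reads from the overlapping stretches of these 7 genes are uncertain.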

How the data were processed

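RNA of 9 metaphase II oocyte libraries was analysed from a table of 22590 transcript rows. Per the labels' protocols, TRIzol was used to extract total RNA, and the libraries followed a standard protocol of the sequencing provider; no aligner, counter, strand setting or genome build is given in the sources used here. The deposited estimated counts are, per the file headers, the authors' values before normalization, and are whole in every library in 65.0% of rows. Per the file headers the authors also deposited TPM, FPKM, a signal equal to the counts times 1 factor per library, and group averages. TPM was used for levels between genes, FPKM only for the transcript length that its ratio to the counts implies, and the signal and averages were not used.

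Transcript rows of a gene were added and the sum rounded. Symbols came from a RefSeq table by gene ID (16995 genes, 95.2%). All 9 libraries entered 1 fit of the quasi-likelihood test of edgeR 4.0.16 (R 4.3.3; robust, TMM factors, filter at a minimum count of 10 and a total of 15), with 1 coefficient a group and Benjamini-Hochberg adjustment over 13206 genes, and an adjusted p under 0.05 made a call. The fit was also tested on counts simulated from the means, spread and library sizes of these data. It called 4 of 47 genes changed by a fold of 1.5, and 11 of 46 changed by a fold of 2. At a fold of 4 it called 42 of 50, and at a fold of 8, 47 of 47. Far fewer genes were changed in the simulation than were called in the data, at 1278 higher and 1935 lower with microplastics. The adjustment over all genes is stricter in that case, so these rates need not hold for the data. Genes were missed at folds of 1.5, 2 and 4, so a gene that did not pass may still have changed, also by a fold above 2. Errors of log2 fold changes are SE. Depth was 21.17 to 22.74 M estimated reads a library, so 3 reads are 0.132 to 0.142 CPM before TMM scaling, which covers counting error only. Nothing in the labels ties the libraries to separate animals or cultures; p-values then reflect the spread between these samples alone, possibly a technical one.

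Alternatives were DESeq2 1.42.0 (size factors alone, and its Wald test), scaling by library size only, a test without the filter or with 5 CPM required in 3 libraries, limma-voom (limma 3.58.1), a fit of the pair of groups alone, a block for replicate number, a smooth trend on transcript length removed, a threshold of 0.1, omission of each library in turn, and control 3 and taurine 3 left out together. The genes, the lists of other pathway genes and markers, and these choices were made with earlier results of these data known. Library values are given for each of the 50 genes called in any comparison; among other pathway genes, the 5 with the smallest adjusted p in each direction are named.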

Additional observations from a re-analysis of the deposited data

How the results depend on the processing

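The limits are 3 libraries a group, scaling, single libraries and transcript length. Repair genes called higher and lower with microplastics against control numbered 8 and 8, but 27 and 2 with library size only, 15 higher with control 3 and taurine 3 left out together, 14 higher at an adjusted p under 0.1, and 1 to 14 higher and 4 to 8 lower with each single library left out. With taurine against microplastics, 5 and 1 became 1 and 13 with library size only, 8 higher with the DESeq2 Wald test, 8 higher at an adjusted p under 0.1, 0 lower with the length trend removed, and 3 to 6 higher and 0 to 2 lower with each library left out. Against control, 0 and 0 became 4 and 1 with control 3 and taurine 3 left out. Medians of 0.21 with microplastics and -0.06 with taurine against microplastics were 0.69 and -0.50 with library size only and 0.09 and 0.06 with the length trend removed, and the first was 0.09 without microplastics 3. The one gene to turn its sign while called under either setting was BRCA2, at 0.38 (adjusted p = 0.0495) with library size only for microplastics against control. In that comparison the DESeq2 Wald test added XRCC6, LIG1 and OGG1 as higher and ATM as lower. Of all tested genes, 9.68% were called higher and 14.7% lower with microplastics. These shares were 30.3% and 6.63% with library size only, and 19.5% and 18.6% with control 3 and taurine 3 left out. For taurine against microplastics, 10.1% and 4.13% became 4.55% and 18.8% with library size only. No such shares are given here for single libraries, threshold, DESeq2, length trend or replicate block. For those settings, a change in repair genes is not told apart here from one in all genes. The causes of these changes were not tested.

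With a replicate block the counts were 6 higher and 6 lower with microplastics, 3 and 1 with taurine against microplastics, and 0 and 0 against control. Deviations of same-numbered libraries from their group means correlated at -0.441 (taurine 3 and control 3) to 0.261 (microplastics 3 and control 3). Differently numbered libraries were not compared in this way, so these values cannot decide whether the numbers pair the libraries.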
